A study of Equus caballus with 19 samples.

Results

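The genes described here are 8 that mark or direct the tendon and cartilage lineages, namely SCX, MKX, TNMD, EGR1, EGR2, SOX9, SOX5 and SOX6. They were taken by gene name from the 29196 names of each deposited expression table, and each name occurs in both tables. The tables cover 8 lines of wild-type (WT) adult tenocytes from the superficial digital flexor tendon of Thoroughbred horses, 1 line per donor, grown within bovine type I collagen gels and collected on day 14. In the first batch, lines 1 to 5 were cultured without cytokine (control) or with 1 nM IL-1β, giving 10 libraries. In the second batch, lines 6 to 8 were cultured as control, with 1 nM IL-1β, or with the same dose of IL-1β together with IL1Ra at 100 ng/ml, giving 9 libraries. IL-1β is an inflammatory cytokine that signals through the interleukin-1 receptor, and IL1Ra is the natural antagonist that occupies this receptor without signalling. No culture received IL1Ra alone, so its effect can be read only in the presence of IL-1β.

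Scleraxis (SCX), a basic helix-loop-helix factor, and mohawk (MKX), an atypical homeobox factor, direct tendon progenitors and the production of fibrillar collagen by tendon cells. EGR1 and EGR2 are zinc finger factors that are induced by mechanical load and growth factors and act on collagen genes in tendon. Tenomodulin (TNMD) is not a transcription factor: it is a membrane glycoprotein of mature tenocytes whose gene is activated by scleraxis and mohawk. SOX9 is the master factor of the chondrocyte lineage, and SOX5 and SOX6 are related proteins without an activation domain of their own that bind beside SOX9 at cartilage genes. Progenitors at the tendon to bone attachment express scleraxis together with SOX9.

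Values are normalised counts, which sum to between 43394000 and 49198000 per library in the first batch and between 24964000 and 34602000 in the second. A gene was called DE where limma gave an adjusted p under 0.05 and a log2-fold change of 1 or more in either direction, fitted to log2(normalised count + 1) over all genes of a batch that passed a filter on low values. Of the 8 genes, 7 passed the filter in both batches and TNMD did not. Of 11 tenocyte markers, 9 reached 10 normalised counts in every control library, and TNMD was listed at 0 in all libraries but 1. These are bulk cultures, in which fewer cells of a type and less RNA per cell cannot be told apart. Line 6 stood apart in the second batch, with control counts of SCX, MKX and SOX6 more than 10-fold above those of lines 7 and 8, so changes without it are given with the results of that batch.

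IL-1β lowered 5 of the 7 tested genes in the first batch and raised 1. SCX, MKX, EGR2, SOX9 and SOX6 were downregulated, SOX5 was upregulated, and EGR1 did not pass the test. The 6 DE genes compare with 12.8% of the 14719 genes tested (4.91% higher and 7.9% lower). The values of the control and IL-1β libraries did not overlap for the same 6 genes, which held for 19.5% of all genes.

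SCX control counts in lines 1 to 5 were 822, 1075, 2110, 1919 and 1516, and counts with IL-1β were 9.69, 205, 64.2, 179 and 82.9. Every stimulated library was below every control library, and the ratio of stimulated to control was lowest in line 1. The log2-fold change of SCX was −4.25 (SE 0.71; limma adjusted p = 0.0019), and within lines it ranged from −6.27 to −2.39. The mean fell 13.8-fold, from 1488 ± 545 to 108 ± 81.5 (SD, n = 5).

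MKX control counts were 792, 1171, 4654, 2969 and 1702 in lines 1 to 5, against 35.3, 164, 459, 256 and 33.6 with IL-1β. The log2-fold change of MKX was −3.95 (SE 0.77; limma adjusted p = 0.0042), with all 5 lines lower. Line 3 had the highest MKX count in both conditions. In the control cultures SCX and MKX placed the lines in the same order, with line 3 highest, then lines 4, 5, 2 and 1. With IL-1β the orders differed, since SCX was then highest in line 2 and MKX in line 3. The changes of SCX and MKX differed by −0.30 on the log2 scale (95% confidence interval −2.05 to 1.45; exact sign-flip permutation test over 5 lines, two-sided p = 0.75). The interval leaves room for a difference of either sign.

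In the first batch every one of the 10 libraries listed TNMD at 0, as did 8 of the 9 second-batch libraries. The one value above 0 was 1.00 normalised count in the control library of line 6. COL1A1, the main tendon collagen, was measured in the same control libraries at 634135 ± 162707 (SD, n = 5) in the first batch. No change of TNMD can be read from these tables, and a value listed at 0 does not show that the gene was not expressed.

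**Figure D1:**
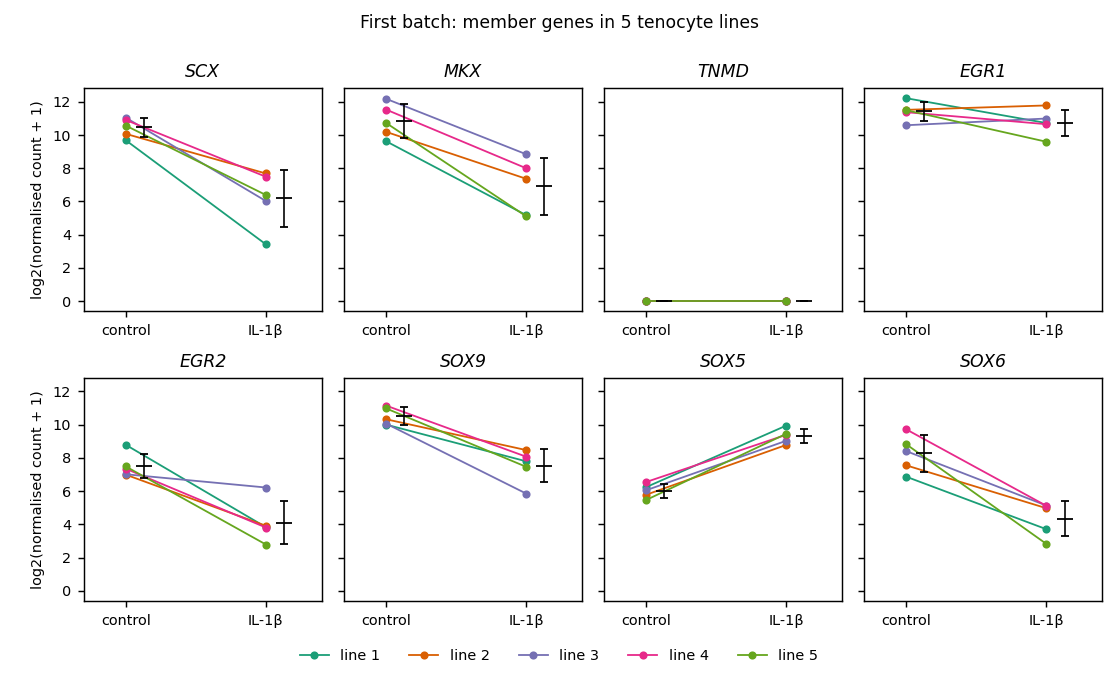
Level of each of the 8 genes in the first batch as log2(normalised count + 1) on the vertical axis, for control and IL-1β cultures on the horizontal axis. Each coloured line joins the libraries of 1 of 5 tenocyte lines, and black bars are the mean ± SD. SCX, MKX, EGR2, SOX9 and SOX6 are lower with IL-1β in all 5 lines, SOX5 is higher in all 5, EGR1 is lower in 3 of 5 and TNMD stays at 0.

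EGR1 and EGR2 differed in how much they changed. EGR1 control counts were 4760, 2928, 1540, 2655 and 2884 in lines 1 to 5, and counts with IL-1β were 1689, 3518, 2038, 1609 and 773. The groups overlapped, with EGR1 lower in lines 1, 4 and 5 and higher in lines 2 and 3. Its log2-fold change was −0.69 (SE 0.38; 95% confidence interval −1.54 to 0.16; limma adjusted p = 0.208).

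EGR2 control counts were 441, 126, 128, 162 and 178, and counts with IL-1β were 13.2, 14.1, 73.4, 13.0 and 5.90. EGR2 was lower in every line, but in line 3 its log2 ratio was −0.80, against −4.96 to −3.08 in the others. Its log2-fold change was −3.41 (SE 0.60; limma adjusted p = 0.0024). Within lines EGR1 minus EGR2 was 2.72 on the log2 scale, EGR1 having the smaller decrease (95% confidence interval 1.60 to 3.85), in the same direction in 5 of 5 lines. The exact sign-flip permutation test gave p = 0.0625, the smallest that 5 lines allow, and 0.109 after Benjamini-Hochberg adjustment over the 7 pairs of genes compared.

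The 3 SOX genes did not move together. SOX9 control counts in lines 1 to 5 were 1027, 1285, 1072, 2274 and 2023, and counts with IL-1β were 221, 354, 56.9, 269 and 176. All stimulated libraries were below all controls, and the log2-fold change of SOX9 was −2.97 (SE 0.45; limma adjusted p = 0.0011). The mean fell 7.13-fold, from 1536 ± 574 to 215 ± 110 (SD, n = 5).

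SOX6 control counts were 116, 187, 339, 842 and 451, against 12.1, 30.4, 34.1, 33.7 and 6.08 with IL-1β. The spread among control lines, 7.27-fold from lowest to highest, was the widest of the 7 tested genes in that group. SOX6 fell by 3.92 on the log2 scale (SE 0.61; limma adjusted p = 0.0013). Line 1 had the lowest control count of SOX6, SOX9, SCX and MKX alike.

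SOX5 went the other way. Its control counts were 74.5, 54.0, 65.3, 92.5 and 43.2, and counts with IL-1β were 984, 439, 522, 670 and 698. The lowest stimulated library was above the highest control, and the mean rose 10.1-fold, from 65.9 ± 19.0 to 662 ± 209 (SD, n = 5). The log2-fold change of SOX5 was 3.30 (SE 0.27; limma adjusted p = 3.9e-05), with 2.84 to 3.98 within lines, the narrowest range of the 7 tested genes. By p-value SOX5 ranked 49th of the 14719 genes, ahead of the other members, of which SOX9 followed at 598th.

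The change of SOX5 exceeded that of SOX6 by 7.22 on the log2 scale (95% confidence interval 5.13 to 9.32), and SOX9 minus SOX5 was −6.28 (−7.61 to −4.94). Each held in 5 of 5 lines (exact sign-flip permutation test, p = 0.0625, the smallest possible; 0.109 adjusted over 7 pairs). SOX9 minus SOX6 was 0.95 (−0.61 to 2.50; exact permutation p = 0.1875, adjusted 0.219), with 4 lines positive. SCX changed by −1.28 relative to SOX9 (−3.22 to 0.66), with SCX falling further in 5 of 5 lines (exact permutation p = 0.0625, adjusted 0.109). By line this difference ran from −4.06 to −0.34. It was largest by far in line 1, where SCX with IL-1β was only 9.69 normalised counts. MKX minus SOX9 was −0.98 (−2.57 to 0.61; exact permutation p = 0.1875, adjusted 0.219).

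**Figure D2:**
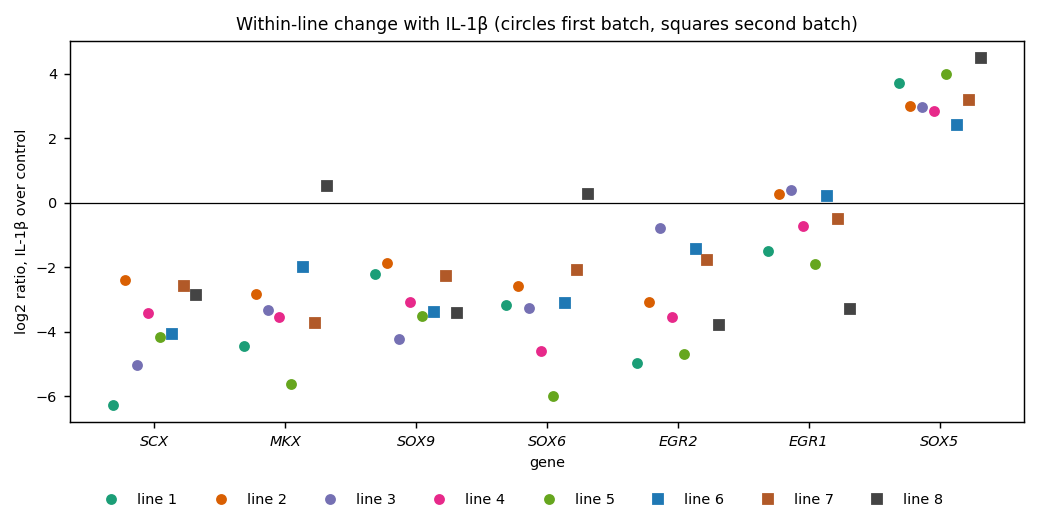
Within-line log2 ratio of the IL-1β library over the control library of the same line (vertical axis) for 7 genes (horizontal axis), with circles for lines 1 to 5 and squares for lines 6 to 8. SOX5 lies above 0 in all 8 lines, SCX, SOX9 and EGR2 lie below 0 in all 8, MKX and SOX6 are below 0 in 7 of 8, and EGR1 is below 0 in 5 of 8.

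In the second batch the same stimulation left 1 of the 7 genes DE, SOX5, against 0.341% of 16705 genes (0.269% higher and 0.0718% lower). With the tenocyte line as a block, 3 were DE, SOX5 upward and SCX and SOX9 downward, against 5.18% of genes (2.59% in each direction). Before adjustment, 3 of 7 members had a p under 0.05 without the block (11.4% of genes) and 6 of 7 with it (22.2% of genes). The values of the control and IL-1β groups did not overlap for SOX9 and SOX5, which held for 16.4% of all genes.

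SOX5 in lines 6, 7 and 8 was 112, 37.7 and 30.0 in control and 603, 356 and 695 with IL-1β, and line 8 rose the most. Its log2-fold change was 3.37 (SE 0.51; limma adjusted p = 0.0468, and 0.0144 with the block). The adjusted p was 0.019 without line 6, 0.439 without line 7 and 0.788 without line 8 (limma). Leaving out line 7 or line 8 left 0 of the 16705 genes DE, so the lost call was not particular to SOX5. The log2-fold changes without each line were 3.85, 3.45 and 2.81.

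SOX9 was 1056, 746 and 376 in the controls of lines 6 to 8, and 99.8, 154 and 34.2 with IL-1β. All 3 lines were lower, by 2.27 to 3.42 on the log2 scale. The log2-fold change was −3.03 (limma adjusted p = 0.177, and 0.0092 with the block). Without line 6 the block gave −2.85 (adjusted p = 0.0090).

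SCX was 4720, 266 and 105 in control and 278, 43.5 and 13.6 with IL-1β. Each line was lower, but the stimulated library of line 6 was above the control libraries of lines 7 and 8, so the groups overlapped. The log2-fold change of SCX was −3.18 (limma adjusted p = 0.653, and 0.0223 with the block, which compares libraries within a line). Leaving out line 6 gave −2.73 with the block (adjusted p = 0.0139). With the block but without line 7 or line 8, 0 of the 7 members were DE, SCX and SOX9 included. Of the 16705 genes, 0 were DE without line 7, and 8 were higher and 3 lower without line 8.

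MKX was 4059, 151 and 11.5 in control and 1024, 10.5 and 16.8 with IL-1β, lower in lines 6 and 7 and slightly higher in line 8. Its control level in line 8 was close to the filter of 10. MKX changed by −1.73 (limma adjusted p = 0.888, with the block 0.209), and by −1.61 without line 6 (adjusted p = 0.601). SOX6 showed the same arrangement, at 400, 18.3 and 5.32 in control and 45.1, 3.51 and 6.65 with IL-1β. Its log2-fold change was −1.65 (limma adjusted p = 0.844, with the block 0.188), and −0.91 without line 6 (adjusted p = 0.666).

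EGR2 was 37.3, 137 and 237 in control and 13.1, 39.1 and 16.1 with IL-1β, lower in 3 of 3 lines. Its log2-fold change was −2.34 (limma adjusted p = 0.280, with the block 0.125, and 0.0352 with the block but without line 6). EGR1 was 652, 8178 and 7741 in control and 751, 5724 and 780 with IL-1β. The lines disagreed, with little difference in line 6 and a 9.91-fold lower count in line 8. Its log2-fold change was −1.21 (limma adjusted p = 0.790, with the block 0.453), and −1.91 without line 6 (adjusted p = 0.358). Line 6 was thus lowest for EGR1 and EGR2 in the controls, and highest for SCX, MKX, SOX9, SOX5 and SOX6.

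Over both batches SCX, SOX9 and EGR2 were lower with IL-1β in 8 of 8 lines and SOX5 was higher in 8 of 8. Of all genes, 49.8% moved in one direction, up or down, in every first-batch line and 38.0% in every second-batch line. The share of genes moving one way in all 8 lines was not computed, so the counts over 8 lines have no matching share. The batches were normalised separately, so levels are not set against each other across them.

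The effect of IL1Ra was read in the same 3 lines, and no member was DE in either comparison with the combined treatment. The combined treatment against control gave 0 of 7, with 0.012% of genes DE, and 2 of 7 at an unadjusted p under 0.05 (EGR2 and SOX5; 5.67% of genes). Against IL-1β alone it gave 0 of 7, with 0.0% of genes DE, and 1 of 7 at an unadjusted p under 0.05 (SOX5; 2.78% of genes). With the block the counts were also 0 of 7 in both (0.251% and 0.00599% of genes), with 4 and 3 of 7 at an unadjusted p under 0.05 (13.4% and 8.38% of genes). Both comparisons share the combined-treatment libraries, and each shares its control or IL-1β libraries with the comparison of IL-1β against control. The values are therefore given side by side.

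SOX5 with the combined treatment was 152, 233 and 240 in lines 6 to 8, between control and IL-1β in each line. It lay below every library with IL-1β alone, which held for 3.35% of genes (6.47% did not overlap in either direction), and above every control library, which held for 5.8% (11.8% in either direction). Against IL-1β the log2-fold change of SOX5 was −1.37 (95% confidence interval −2.55 to −0.20; limma adjusted p = 1.00). Against control it was 2.00 (0.82 to 3.17; limma adjusted p = 0.567). Line 6 came nearest its control, at a log2 ratio of 0.43, while lines 7 and 8 remained at 2.59 and 2.96. With the block and without line 6, SOX5 was 2.78 above control (adjusted p = 0.0242).

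SOX9 with the combined treatment was 563, 224 and 85.3, again between the other conditions in each of the 3 lines. Its log2-fold change against IL-1β was 1.44 (−0.35 to 3.24; limma adjusted p = 1.00) and against control −1.59 (−3.38 to 0.21; limma adjusted p = 0.943). SOX9 and SOX5 were the members whose value was closer to the control of its own line with IL1Ra than without it in 3 of 3 lines. That held for 4180 of 16703 genes tested, a share close to that of the members, 2 of 7.

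MKX with the combined treatment was 3062, 121 and 52.8, above IL-1β alone in 3 of 3 lines. Lines 6 and 7 were within 0.41 of their controls on the log2 scale, whereas line 8 was 2.11 above its control. The change of MKX against IL-1β was 2.20 (−3.61 to 8.0; limma adjusted p = 1.00, with the block 0.456). SOX6 was 195, 8.36 and 4.19, nearer to control in lines 6 and 7.

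SCX with the combined treatment was 1523, 30.2 and 10.5. In line 6 this was 2.45 above IL-1β alone on the log2 scale, and in lines 7 and 8 it was 0.51 and 0.35 below it. The change of SCX against control was −2.65 (−7.41 to 2.11; limma adjusted p = 1.00), with 3 of 3 lines lower. With the block and without line 6 it was −3.16 (adjusted p = 0.0189). In that fit 249 of the 16705 genes were DE upward and 165 downward. When line 7 or line 8 was left out instead, 0 genes were DE. The mean difference of SCX from IL-1β, 0.53, became −0.43 without line 6.

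EGR1 with the combined treatment was 1635, 1600 and 1559 in lines 6 to 8, a spread of 2.37% (coefficient of variation). The same lines spread by 76.5% in control and 118% with IL-1β. EGR2 was 55.8, 21.2 and 20.2, above its control in line 6 and below it in lines 7 and 8. Against IL-1β the log2-fold changes were 0.09 for EGR1 (−2.38 to 2.56) and 0.49 for EGR2 (−1.27 to 2.24), each with a limma adjusted p of 1.00.

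Without line 6 the changes against IL-1β were 0.92 for SOX9, −1.07 for SOX5, 2.50 for MKX, 0.25 for SOX6, −0.42 for EGR1 and −0.27 for EGR2 (limma adjusted p = 0.728 to 0.946, that of SOX5 lowest). Against control they were −1.93 for SOX9, 0.90 for MKX, −0.66 for SOX6, −2.33 for EGR1 and −3.06 for EGR2 (limma adjusted p = 0.139 to 0.953).

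**Figure D3:**
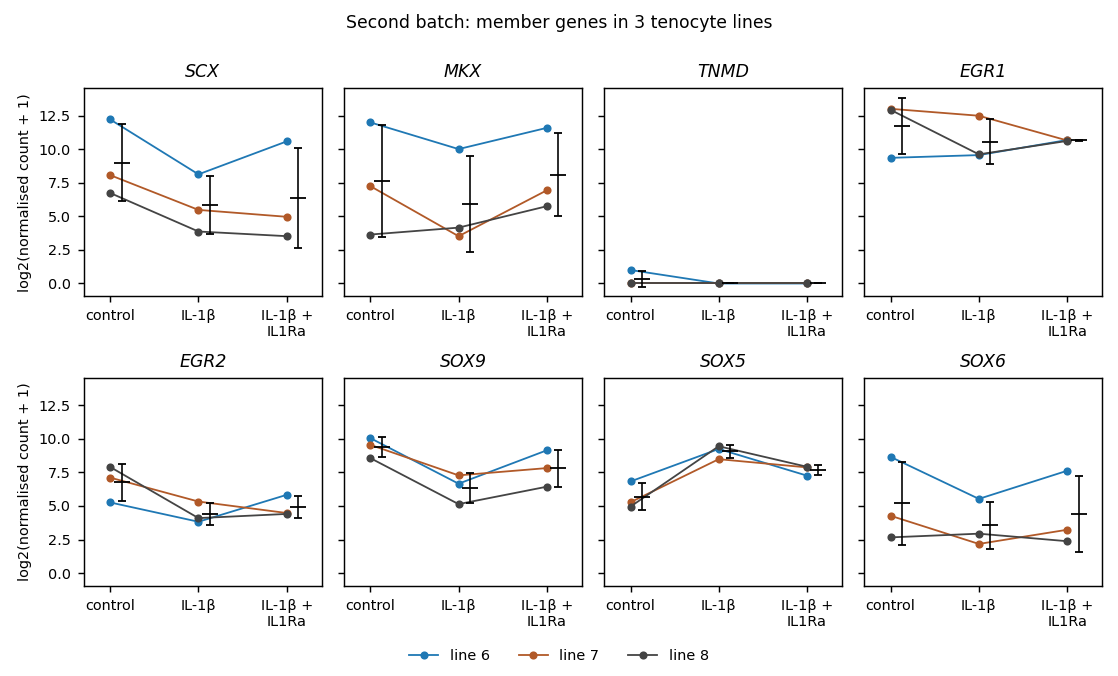
Level of each of the 8 genes in the second batch as log2(normalised count + 1) on the vertical axis, for control, IL-1β and IL-1β + IL1Ra on the horizontal axis. Coloured lines join the libraries of lines 6, 7 and 8, and black bars are the mean ± SD. SOX9 and SOX5 with IL1Ra lie between control and IL-1β in all 3 lines, line 6 is highest for SCX, MKX and SOX6 throughout, and EGR1 with IL1Ra is 1559 to 1635 normalised counts in all 3 lines.

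**Figure D4:**
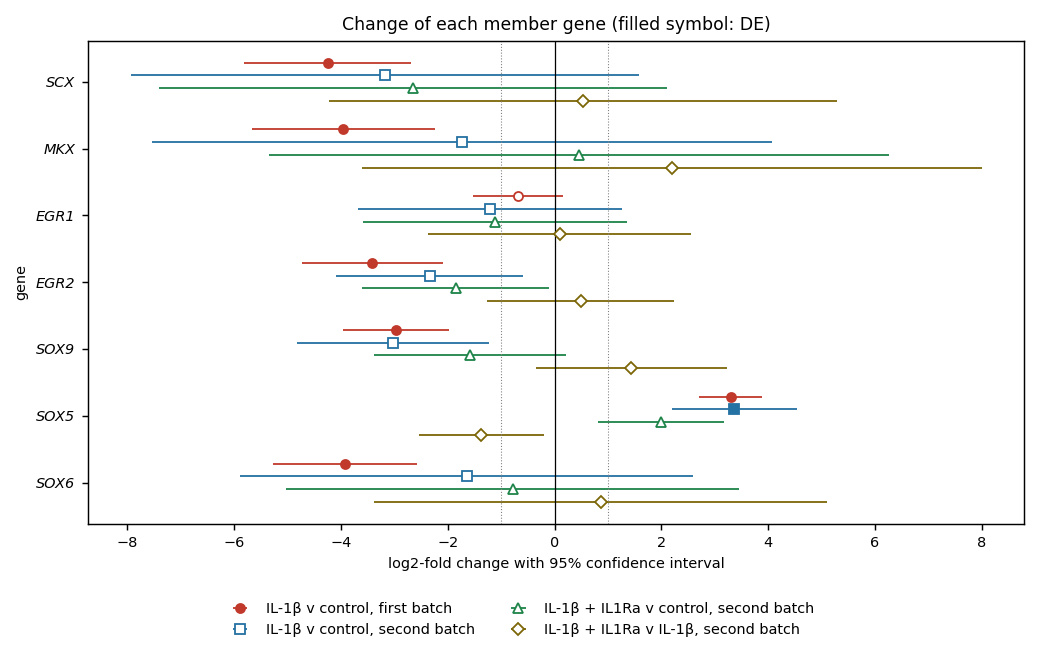
Log2-fold change (horizontal axis) with its 95% confidence interval for 7 genes (vertical axis) in 4 comparisons, where a filled symbol marks a DE gene and dotted lines mark a change of 1 in either direction. The first batch has 6 filled symbols and the second has 1, SOX5 at 3.37. The intervals of SCX and MKX in the second batch run from −7.94 to 1.58 and from −7.54 to 4.08.

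Genes that act with or downstream of these factors were examined in 8 lists, in the first batch unless stated, where the median log2-fold change of all genes was −0.003. In the second batch limma called 0 of the 105 tested genes of these lists DE (0.341% of all genes). Of the 105, 14 had an unadjusted p under 0.05 (11.4% of all genes) and 11 were DE with the block (5.18% of all genes). A gene may stand in more than 1 list. In the first batch 27 of the 100 tested genes of the lists were DE, against 12.8% of all genes (4.91% higher and 7.9% lower). The counts of each list below stand beside these same shares. With the block 33 were DE, against 16.2% of all genes. With it 7 were gained (EGR3, FMOD, GDF6, MSX2 and NOG downward, FOSB and RUNX3 upward) and MATN3 was lost.

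Among 9 helix-loop-helix partners and inhibitors of scleraxis, 0 were DE in limma and the median was 0.05. Of the 9, 4 had an unadjusted p under 0.05, against 39.5% of all genes. TWIST1, which can pair with scleraxis partners, was at −0.87 (adjusted p = 0.0080), and the partner TCF3 at −0.41 (adjusted p = 0.0064), both under the fold needed for a call in limma. ID1, ID2, ID3 and ID4, the inhibitors, lay between −0.32 and 0.19.

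Of 14 tested EGR family, corepressor and immediate early genes, 3 rose and 0 fell, with a median of 0.14. IER3, a stress-induced survival gene, rose by 4.09, ATF3 by 1.29 and the EGR corepressor NAB1 by 1.26 (limma adjusted p = 0.0014, 0.0350 and 1.6e-04). NAB1 went from 3417 ± 618 to 8152 ± 997 normalised counts (SD, n = 5). The other corepressor, NAB2, was at −0.80 (adjusted p = 0.0031), short of the fold threshold. EGR3 changed by −1.36 (adjusted p = 0.0544), and EGR4 was at most 9.39 normalised counts in any library.

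Of the other SOX genes, 6 were tested, of which SOX8 fell and SOX15 rose. SOX8, the close relative of SOX9, fell by 4.74 (limma adjusted p = 2.15e-04), from 139 ± 87.7 to 3.45 ± 1.5 normalised counts (SD, n = 5). SOX15 rose by 1.07 (adjusted p = 0.0375). SOX8 also had a log2-fold change of −4.52 in the second batch (limma adjusted p = 0.0980, and 0.0240 with the block).

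Of 19 homeobox and limb connective tissue factors, 0 rose and 4 fell, with a median of −0.50. Among them were IRX3 (−1.26), FOXP1 (−1.26) and TBX4 (−1.15), the last a factor of hindlimb identity. MKX, at −3.95, fell further than these 3. Of 15 TGF-β and SMAD genes, TGFB1 fell by 1.10 (limma adjusted p = 0.0085) and 0 rose, with a median of −0.14.

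Of 17 tendon matrix genes, 0 rose and 8 fell, with a median of −1.40. The lowest were COMP, a pentameric matrix protein of tendon and cartilage, at −4.08, THBS4 at −3.16, TNC at −3.07 and COL12A1 at −2.36 (limma adjusted p = 0.0132, 0.0396, 0.0207 and 0.0129). LOX, COL1A1, COL5A1 and COL1A2 were the other 4. None of the 4 tested proteoglycan genes of the list was DE, with FMOD at −2.03 (adjusted p = 0.176), BGN at −0.36 (0.172), DCN at 0.73 (0.0626) and LUM at 0.91 (0.0109, under the fold threshold). FMOD was DE with the block (limma adjusted p = 0.0208).

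Of 12 tested cartilage genes, 1 rose and 7 fell, with a median of −2.0. ACAN, the core protein of aggrecan and a SOX9 target, fell by 7.55, from 16957 ± 14368 to 223 ± 368 normalised counts (SD, n = 5; limma adjusted p = 7.3e-04). PRG4, which encodes lubricin, changed by −6.19, CILP2 by −4.19 and COMP by −4.08. COL11A1, COL9A2 and MATN4 also fell, and MATN3 rose by 1.58 (adjusted p = 0.0479, but 0.0579 with the block, where it was not DE). COL2A1, COL9A1, COL9A3, COL11A2, HAPLN1, MATN1 and CNMD were too low to test.

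Of 10 tested master factors of other mesenchymal lineages, CEBPB rose by 1.54 and DLX5, a bone and limb factor, fell by 3.01 (limma adjusted p = 3.0e-04 and 0.0109). RUNX2, the master factor of bone, changed by −0.24 (adjusted p = 0.368). In the second batch with the block, the genes that fell included SOX8, DLX5, COMP, TNC, ACAN and PRG4, and NAB1, IER3, CEBPB and TGFB2 rose.

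**Figure D5:**
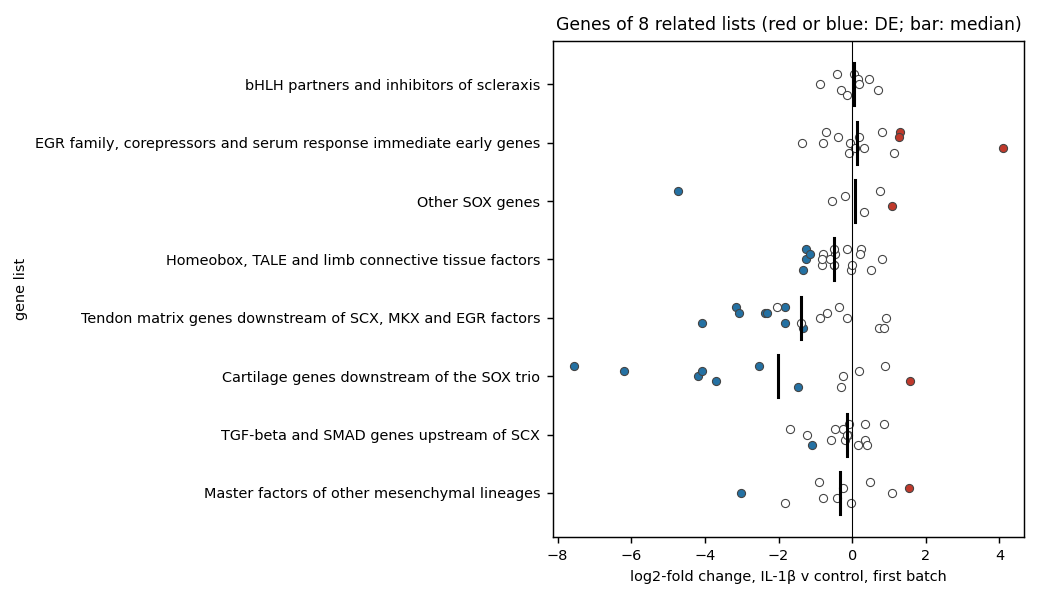
Log2-fold change with IL-1β in the first batch (horizontal axis) of each tested gene of 8 lists (vertical axis), where red and blue points are DE upward and downward, open points are not DE and the bar is the list's median. The cartilage and tendon matrix lists have the lowest medians, −2.0 and −1.40, and the scleraxis partners have 0 DE genes.

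Markers of other cells moved with IL-1β as well. All 7 pericyte and smooth muscle markers were lower in the first batch, 5 of them DE, and their summed counts were 37831 to 126997 in control and 15359 to 34478 with IL-1β. The 10 chondrocyte markers, SOX9 and ACAN among them, summed to 7529 to 43040 in control and 119 to 1162 with IL-1β, with COL2A1 at most 4.15 in any library. Only 4 of them were tested: ACAN, COL9A2 and SOX9 were DE downward and MATN3 upward, the last only without the block. In the second batch COL9A2 and MATN3 were at 0.53 and 0.72 (limma adjusted p = 0.725 and 0.812). ACAN and SOX9 were lower there. Tenocyte markers summed to 1101550 to 1908710 in the first-batch controls and 545379 to 979582 with IL-1β. Of the 9 tested, 6 were lower and 3 higher. The 10 leukocyte markers summed to 425 to 2441 and 585 to 4002, with CD68 the 1 DE gene among them, upward by 2.64. NKG7 was at −1.32 (limma adjusted p = 0.125). PTPRC, CSF1R and CD3E were at most 6.46, 2.11 and 1.07 in any library of either batch. CD14 and ITGAM passed the filter in the second batch, where they changed by 3.42 and −0.12 with IL-1β (limma adjusted p = 0.854 and 0.987). In the first batch the 7 endothelial markers summed to 639 to 1684 and 56.8 to 201, with ERG the 1 DE gene, at −3.67. CDH5 was at most 3.49 in any control or stimulated library of that batch. The endothelial markers did not move together: VWF was at −1.53 and PECAM1 at 1.68 (limma adjusted p = 0.0950 and 0.115). With the block PECAM1 was DE upward. Adipocyte markers summed to 127 to 3689 and 544 to 4753, and skeletal muscle markers to at most 67.5. In the second-batch controls the chondrocyte markers, SOX9 among them, summed to 12988, 1539 and 619 in lines 6, 7 and 8. The pericyte and smooth muscle markers summed there to 63824, 32651 and 12131. SCX, MKX, SOX9, SOX5 and SOX6 placed these controls in the same order. So did the tenocyte markers, SCX and MKX among them (883196, 588152 and 298293). Leukocyte (1805, 655 and 587) and endothelial markers (1056, 628 and 531) also followed it. Adipocyte markers (52.2, 6213 and 1257) and skeletal muscle markers (26.7, 0 and 345) did not. The part of these markers in the changes of the 7 genes was not tested.

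For SCX, MKX and SOX9 the genes with the most similar profile were found by the root mean square difference of centred log2 values over the 10 first-batch libraries, among 14475 genes. Genes with only a LOC number for a name were passed over when the nearest genes were named. They do count in the ranks and the median, so a LOC gene may lie nearer than a gene named here. SCX lay nearest SGCD (0.42), EPHB3 (0.56) and COL11A1 (0.56), against a median of 2.43 over all genes. MKX lay nearest ADGRL3 (0.60), ADRA1B (0.62) and MFAP5 (0.64), and SOX9 nearest ZNF385B (0.41), PTN (0.44) and SLC7A3 (0.46). Over the 9 second-batch libraries these distances were larger, at 0.94, 1.47 and 1.99 for SCX, 1.38, 1.71 and 2.13 for MKX, and 1.5, 0.93 and 2.05 for SOX9. The second-batch ranks among the 14475 genes were 10, 111 and 510 for SCX and 16, 79 and 262 for MKX. For SOX9 they were 4865, 155 and 12808, so ZNF385B and SLC7A3 were not near it in that batch. Among the members, SOX6 was nearest to MKX, at rank 12 of 14475 in the first batch (0.72) and rank 6 in the second (1.23). All these genes share the libraries and the response to IL-1β, so the distances are a description only.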

How the data were processed

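RNA sequencing libraries of equine tenocytes (10 in the first batch, 9 in the second) were analysed as deposited. The authors mapped reads to the EquCab3.0 transcriptome with Salmon, imported gene estimates with tximport and divided them by DESeq2 1.36 size factors in R 4.2.1, so the deposited signal values are normalised counts, one table per batch. The batches were normalised separately and were tested apart. Whole reads could not be recovered, so no count model was fitted.

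Here limma 3.58.1 (lmFit, eBayes with trend; R 4.3.3) was applied to log2(normalised count + 1). A gene was kept if 5 or more first-batch libraries, or 3 or more of the second batch, reached 10 normalised counts, and p-values were Benjamini-Hochberg adjusted over all genes tested. Without the block, p-values measure the spread between donor lines. With the block and in the sign-flip tests they measure how much the within-line changes vary between lines. Fold changes on this scale understate changes of low genes. The script was tested on simulated data. Low counts limit the precision of SCX, MKX and SOX6 in lines 7 and 8.

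Libraries of a line share a donor, so lines pair them: deviations from condition means correlated at 0.35 to 0.58 over the 5 same-line pairs of the first batch and 0.54 to 0.79 over the 9 of the second, against −0.36 to 0.29 and −0.62 to 0.25 between lines. The fit without a block is the one reported, and the block, other pseudocounts, filters, scalings and left-out lines are alternatives. Pairs of genes were compared by exact sign-flip tests. The 8 genes and the lists were chosen with earlier results of these data known. Named list genes are the DE genes with the largest change, up to 4 a list, with others chosen after their values were seen, and 1 gene of the lists is not reported here by name. All 8 symbols matched the RefSeq gene table of another horse assembly (TB-T2T), from which no coordinates are given.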

Additional observations from a re-analysis of the deposited data

Results flagged for a closer look

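EGR2 gave both values that stood far from the rest of their group. In the first-batch controls line 1 had 441 normalised counts, against 126 to 178 in the other 4 lines. With IL-1β line 3 had 73.4, against 5.90 to 14.1 in the other 4. The gap to the nearest library was above Dixon's critical value for 5 samples in 2 of 14 groups examined, and chance alone flags about 1 in 20. EGR2 stayed DE in the first batch when either line was left out.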

How the results depend on the processing

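The calls of the 7 genes for IL-1β against control in the first batch held in all 126 recomputed values, the replicate block included. In the second batch the number of DE members, 1 as reported, became 0 with no filter beyond a value above 0, with equal library sums, with equal upper quartiles, without the variance trend and with only the 2 conditions compared. It was 3 with the replicate block, and 0 to 4 when a line was left out, the highest with the block and without line 6. In that last fit 588 of the 16705 genes were DE upward and 648 downward. For IL-1β plus IL1Ra against control the number of DE members was 0 as reported and 0 to 2 with a line left out. The 2 came with the block and without line 6, where 249 of the 16705 genes were DE upward and 165 downward. Equal library sums moved the median of all genes to −0.19 in that batch (0.11 for IL-1β plus IL1Ra against IL-1β), where SOX5 was at 3.19. DE genes higher and lower with IL-1β then numbered 35 and 22, against 45 and 12 as reported and 432 and 433 with the block. Directions turned only when a line was left out: MKX against control with IL1Ra ran from −0.36 to 0.90, and against IL-1β SCX ran from −0.43 to 1.05, EGR1 from −0.42 to 1.06 and EGR2 from −0.27 to 1.16. SCX minus MKX ran from −0.74 to 0.080 (the latter without line 1, and 0.046 without line 3). Leaving out a line together with the block was chosen after seeing the data. The cause was not tested.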
